A study of Mus musculus with 2 samples.

Results

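The 10 leucocyte integrin genes described here are Itgal, Itgam, Itgax, Itgb2, Itga4, Itgae, Itgb7, Itga1, Itgb1 and Itgb5. They were taken by symbol from the 32285 genes of both count matrices, and all 10 were found. The matrices come from 2 droplet libraries of cells from MC38 colon carcinoma tumours, implanted in female C57BL/6 mice and taken on day 14. Mice of 1 group received vehicle and those of the other LC427, so there is 1 library per group, and the number of mice behind each was not given in the sources used here. Dead cells were removed and CD45-positive cells kept on beads before capture with 10x 5′ v2 chemistry. The series title names LRBA, a protein that keeps CTLA4 from lysosomal breakdown, as the target, so the comparison asks how tumour leucocytes of treated and untreated mice differ.

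Integrins are cell-surface adhesion receptors made of 1 alpha and 1 beta chain, and neither chain reaches the surface without a partner. The Itgb2 chain pairs with Itgal to form LFA-1, which binds ICAMs on the cells that T cells touch, with Itgam to form Mac-1 of macrophages and with Itgax to form CD11c/CD18 of dendritic cells. The Itga4 chain pairs with Itgb1 to bind VCAM-1 and fibronectin, or with Itgb7 to bind MAdCAM-1. Itgae, also called CD103, pairs with Itgb7 and binds E-cadherin, Itga1 pairs with Itgb1 and binds collagen, and Itgb5 pairs with the Itgav chain.

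The vehicle library gave 5025 cells with a median of 3494 UMIs and the LC427 library 6008 cells with a median of 2353 UMIs, and 47 cell barcodes occurred in both. Clusters were named from marker genes that hold no integrin, and integrin genes were kept out of the clustering. The classes held, in vehicle and LC427, 3398 and 3923 monocyte/macrophage-like cells, 610 and 609 T-like, 334 and 139 NK-like, 161 and 384 conventional dendritic cell (DC)-like and 130 and 158 mature regulatory DC-like cells. The label CD45-positive did not hold for a cluster of 180 and 368 cells led by Tm4sf1 and Sox9, in which 6.02% of cells had a UMI of Ptprc, the CD45 gene, nor for one of 31 and 12 cells led by Col1a1 and Postn, with 16.3%. Levels are CPM, the UMIs of a gene scaled to a common total of the class's summed UMIs, so more cells with a transcript and more transcript per cell cannot be told apart. Intervals are 95% and cover counting error only. With 1 library per group nothing could be tested between treatments, and differences between the animals cannot be told apart from the treatment. A gene counted as measured in a class with at least 20 UMIs over both libraries, and as apart at 1.5-fold or more. Ratios are LC427 over vehicle.

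The genes of 3 alpha chains lie on chromosome 7 in the same orientation (GRCm38, GENCODE): Itgal at chr7:127296260-127335138, Itgam at chr7:128062640-128118491 and Itgax at chr7:128129547-128150657. Itgax starts 11055 bases after the end of Itgam, and the genes were highest in different classes. The RefSeq promoter table (GRCm38.p6) held a window for 7 of the 10 genes, and those of these neighbours are printed from 250 to 31 bases before the start, with the letters GAGGAA, the core bound by the myeloid factor PU.1, in capitals where either strand held them.
Itgam, chr7:128062390-128062609, plus strand: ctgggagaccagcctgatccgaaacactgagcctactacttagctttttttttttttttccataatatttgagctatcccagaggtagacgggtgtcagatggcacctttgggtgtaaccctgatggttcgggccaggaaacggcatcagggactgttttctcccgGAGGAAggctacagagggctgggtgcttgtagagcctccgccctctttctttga
Itgax, chr7:128129300-128129519, plus strand: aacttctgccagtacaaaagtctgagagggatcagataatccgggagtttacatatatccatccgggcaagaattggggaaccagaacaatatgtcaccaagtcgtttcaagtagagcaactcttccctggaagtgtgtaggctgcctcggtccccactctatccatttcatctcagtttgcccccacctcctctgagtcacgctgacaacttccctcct
The Itgam window held the letters 1 time, first base 84 bases before the start, and the windows of Itgax, Itga4, Itgb1, Itga1, Itgb7 and Itgb5 held them 0 times. Of 32851 windows of the same 220 bases in the table, 20.4% held GAGGAA or its reverse complement TTCCTC, so the match is a description and not a site. A TATAAA was in none of the 7 windows, against 9.95% of all, both strands read. All windows stop 31 bases before the start, so a TATAAA nearer to the start could not be found. GGGCGG was in the windows of Itga4, Itgam, Itgb1 and Itgb5, against 28.5% of all, both strands read. Windows of Itgal, Itgae and Itgb2 were not used here. The spans of Itga1, which holds Pelo on the same strand, of Itga4, which overlaps Cerkl on the other strand, and of Itgae, which holds Haspin on the other strand, cover other genes that the matrices also count. The span of Itgam overlaps Gm49368 on the same strand, and that of Itga1 Gm49395.

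**Figure D1:**
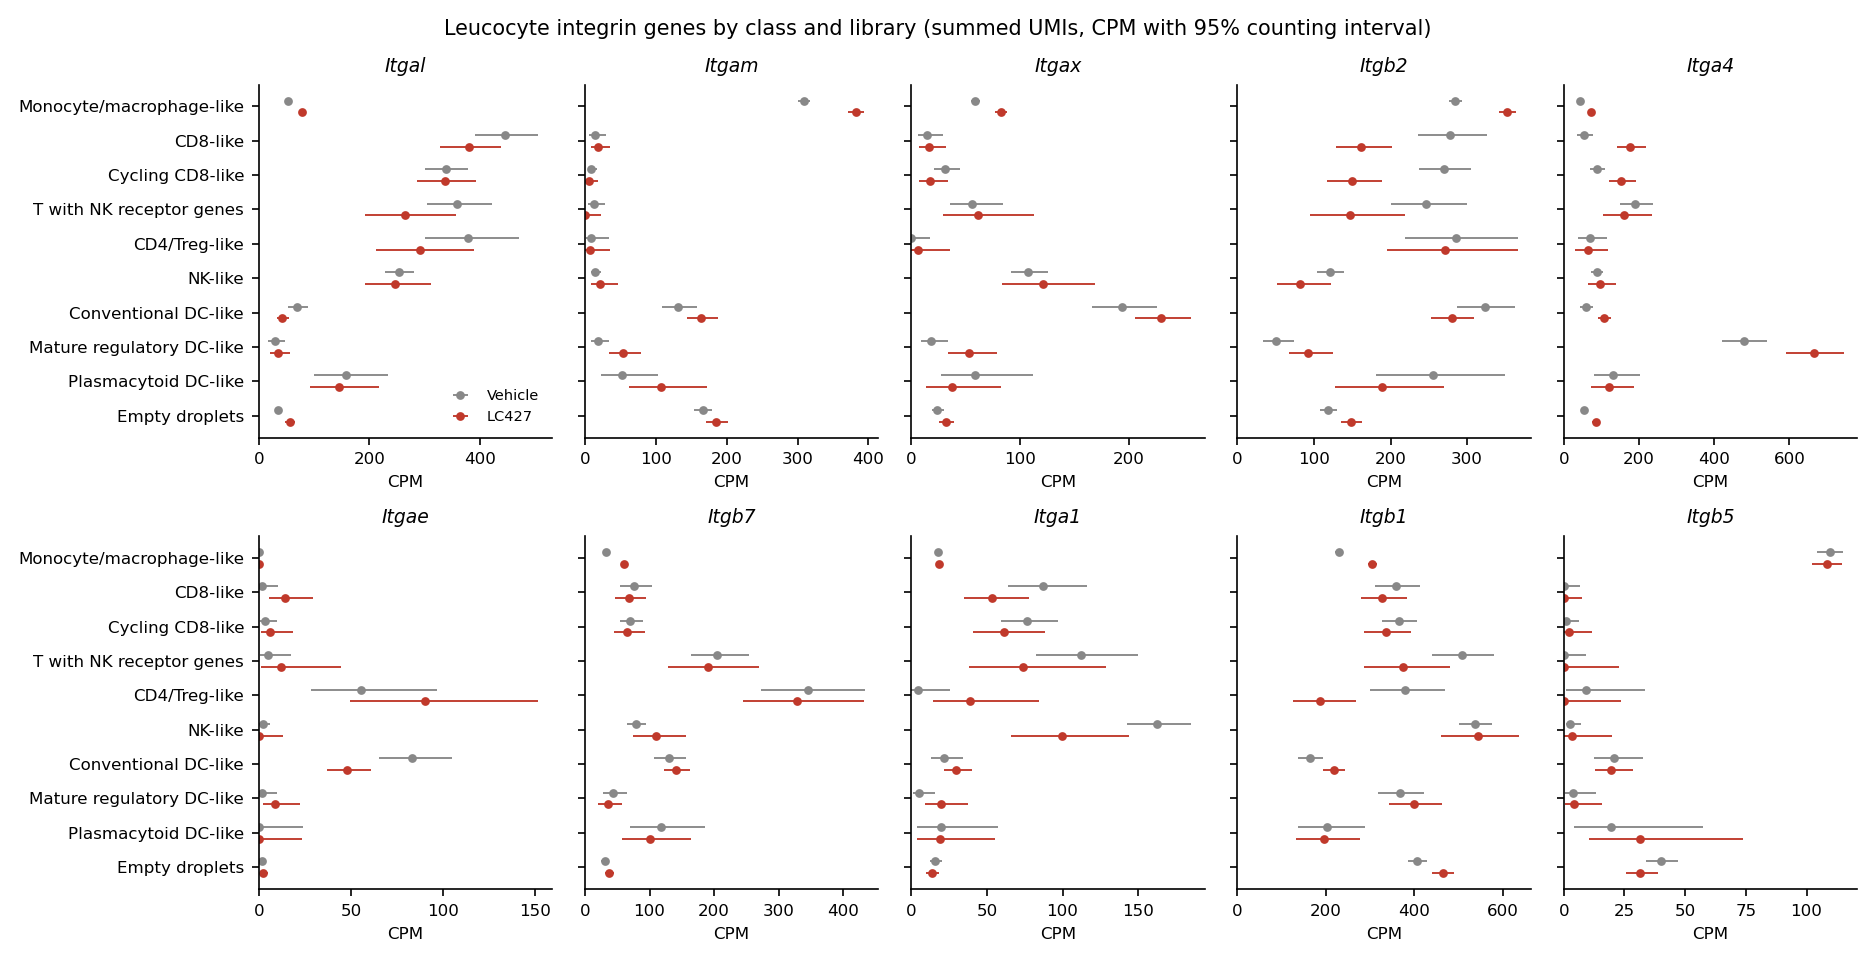
CPM of the 10 integrin genes (horizontal axis) in 9 cell classes and in empty droplets (vertical axis), vehicle in grey and LC427 in red. Points are summed UMIs of a class in 1 library and bars the 95% counting interval; Itgam was highest in monocyte/macrophage-like, Itgax in conventional DC-like, Itga4 in mature regulatory DC-like and Itga1 in NK-like cells.

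The alpha chains differed in the class where they were highest. Itgal, the LFA-1 alpha chain, was highest of the named classes in CD8-like T cells, with 445 CPM in vehicle and 379 CPM in LC427. It stood at 337 and 336 CPM in cycling CD8-like cells, at 253 and 246 CPM in NK-like cells and at 52.8 and 78.8 CPM in monocyte/macrophage-like cells. The interval of CD8-like cells lay above that of cycling CD8-like cells in vehicle and overlapped it in LC427, and both classes lay above the monocyte/macrophage-like class in both libraries. In empty droplets, barcodes of 10 to 100 UMIs that carry free RNA, Itgal stood at 35.2 and 56.4 CPM.

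Itgam, the Mac-1 alpha chain, stood at 309 CPM in vehicle and 382 CPM in LC427 in monocyte/macrophage-like cells. After thinning each cell to 1000 UMIs, 26.7% and 31.1% of these cells held an Itgam UMI, against 1.48% and 0.657% of T-like cells, which should lack it. Before thinning the shares were 60.4% and 55.1% against 2.79% and 1.97%, at median depths of 3618.5 and 2276 UMIs against 2462 and 1673 UMIs. The T-like level of 11.1 and 10.2 CPM lay below the 166 and 185 CPM of empty droplets. Conventional DC-like cells held an intermediate 132 and 164 CPM. Their 13 monocyte/macrophage markers summed to 3462 CPM in vehicle and 3774 CPM in LC427, beside 3220 and 2491 CPM for 12 conventional DC markers. In monocyte/macrophage-like cells the same 13 markers summed to 16097 and 11621 CPM. The part of monocytes or macrophages in the levels of conventional DC-like cells was not tested. Within that class the cluster led by Retnla and Ccl17, with genes of type 2 DCs, held 183 and 189 CPM of Itgam, and the cluster led by Plet1 and Wdfy4, with the type 1 DC gene Xcr1, held 18.5 and 36.3 CPM on 5 and 8 UMIs.

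Itgax, the CD11c alpha chain, was highest in the Retnla and Ccl17 cluster, at 232 CPM in vehicle and 262 CPM in LC427. Conventional DC-like cells together held 194 and 229.8 CPM, and NK-like cells 107 and 121 CPM. Monocyte/macrophage-like cells held 58.8 and 82.1 CPM, below NK-like cells in both libraries, with intervals that overlapped in LC427 and not in vehicle. After thinning, 16.2% and 13.7% of NK-like cells held an Itgax UMI, against 2.3% and 2.79% of T-like cells. Unthinned shares were 33.5% and 20.9% against 6.89% and 3.94%, at median depths of 2528.5 and 1606 UMIs against 2462 and 1673 UMIs.

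Of the named classes, Itga4 was highest in the mature regulatory DC-like class, a state led by Ccr7, Ccl22 and Fscn1. It stood there at 478 CPM in vehicle and 664 CPM in LC427, and after thinning 36.2% and 48.7% of the cells held a UMI. The next highest class was the T sub-class with NK receptor genes in vehicle, at 190.4 CPM, and CD8-like cells in LC427, at 176 CPM, and neither interval overlapped that of the mature regulatory DC-like class. Itgb1, a partner of Itga4, stood at 367 and 399.5 CPM in the same mature regulatory DC-like cells, while Itgb7, the other partner, stood at 43.6 and 35.3 CPM. After thinning, 10.8% and 14.6% of these cells held UMIs of both Itga4 and Itgb1. In a small macrophage cluster led by Neat1 and Malat1, of 56 and 68 cells, the shares were higher, at 16.1% and 23.5%.

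Most Itgae UMIs lay in a small cluster of conventional DC-like cells and in T-like cells. The cluster led by Plet1 and Wdfy4, which has Itgae itself among its leading genes, held 251 CPM in vehicle and 263 CPM in LC427, on 68 and 58 UMIs in 38 and 43 cells. The Retnla and Ccl17 cluster held 6.71 and 6.93 CPM, on 4 and 8 UMIs. Among T-like cells Itgae stood highest in the CD4/Treg-like sub-class, at 55.3 and 90.3 CPM on 12 and 14 UMIs in 87 and 89 cells, and at 1.85 and 14.3 CPM in CD8-like cells on 1 and 7 UMIs. Monocyte/macrophage-like cells held 6 and 3 UMIs in all.

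Itga1, the collagen-binding alpha chain, was highest in NK-like cells at 162 CPM in vehicle and 99.6 CPM in LC427. CD8-like cells held 87.2 and 53.3 CPM and monocyte/macrophage-like cells 17.9 and 18.5 CPM, near the 16.0 and 13.8 CPM of empty droplets. Within the macrophages it ranged from 0 UMIs in both libraries in the cluster led by Retnla and Iigp1 to 46.6 CPM in vehicle in the one led by Ccr2 and Spint1 and 49.7 CPM in LC427 in the one led by Plac8.

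Of the beta chains, Itgb1 was found in every class and was highest in NK-like cells, at 538 and 544 CPM. Empty droplets held 407 and 465 CPM of Itgb1, more than monocyte/macrophage-like cells with 229 and 305 CPM. The part of free RNA in shares of cells with an Itgb1 UMI was not tested. Itgb2 stood at 284 and 352 CPM in monocyte/macrophage-like cells, at 323 and 279.9 CPM in conventional DC-like cells and at 50.9 and 92.7 CPM in mature regulatory DC-like cells. The last was the lowest level of a named class in vehicle, while in LC427 NK-like cells stood lower, at 81.9 CPM. Empty droplets held 118 and 148 CPM of Itgb2, above mature regulatory DC-like cells in both libraries.

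Itgb7, which pairs with Itga4 and Itgae, was highest among leucocyte classes in CD4/Treg-like cells, at 346 CPM in vehicle and 329 CPM in LC427. The Foxp3-led T sub-cluster, of 37 and 69 cells, held 442 and 380 CPM. The Tm4sf1 and Sox9 cluster, poor in Ptprc, held 165 and 173 CPM of Itgb7, on 665 and 792 UMIs, beside 0.497 and 1.31 CPM of Itga4 and 0 and 1 UMIs of Itgae. The alpha chains that pair with Itgb7 were thus at or near 0 there, while an Itgb7 UMI was held by 18.9% and 13.9% of cells after thinning. Unthinned shares for Itgb7 were 84.4% and 70.9% at median depths of 21216 and 10934 UMIs, and Itgb7 in empty droplets was 30.6 and 38.0 CPM. Itgb5 was highest in myeloid cells, with 109.6 and 108 CPM in monocyte/macrophage-like cells and 1.45 and 0.782 CPM in T-like cells, on 3 and 1 UMIs.

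Between the treatments, most members stood a little higher in LC427 in monocyte/macrophage-like cells. Of 9 measured members 2 were at least 1.5-fold higher and 0 lower, against 16.8% of all 11529 measured genes apart, 10.7% higher and 6.07% lower, and the median log2 ratio of the members was 0.42 against 0.13 for all genes. Itgb7 went from 32.3 CPM in vehicle to 61.1 CPM in LC427, a ratio of 1.90 (1.69 to 2.13), and Itga4 from 43.3 to 72.6 CPM, for a ratio of 1.68 (1.51 to 1.86). Itgal, at 1.49 (1.36 to 1.65), lay just under the limit. Itgax had a ratio of 1.40 (1.27 to 1.53), Itgb1 of 1.33 (1.27 to 1.40), Itgam and Itgb2 of 1.24 each, Itga1 of 1.04 and Itgb5 of 0.99. Empty droplets moved the same way for several members, with ratios of 1.59 for Itga4 and 1.24 for Itgb7, and the part of free RNA in these ratios was not tested.

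The macrophage clusters differed in size between the libraries. With each cluster given the same share in both libraries, an alternative added after the data were seen, Itgb7 had a ratio of 1.44 and Itga4 of 1.45, so that 0 members were apart. Itgb7 was high in the cluster led by Ly6i and Nos2, with 365 and 932 cells and 67.8 and 102 CPM, and the one led by Ccr2 and Spint1, with 140 and 609 cells and 70.9 and 87.2 CPM. It was low in the one led by Cbr2 and Ccl8, which also has Folr2 among its leading genes, with 717 and 281 cells and 6.43 and 11.3 CPM, and in the one led by Lgmn and Cx3cr1, with 486 and 712 cells and 11.7 and 26.5 CPM. Within clusters of at least 100 cells in both libraries, Itgb1 was higher in LC427 in 8 of 8, with ratios from 1.18 to 1.78, and Itga4, Itgam and Itgb7 in 7 of 8 each.

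**Figure D2:**
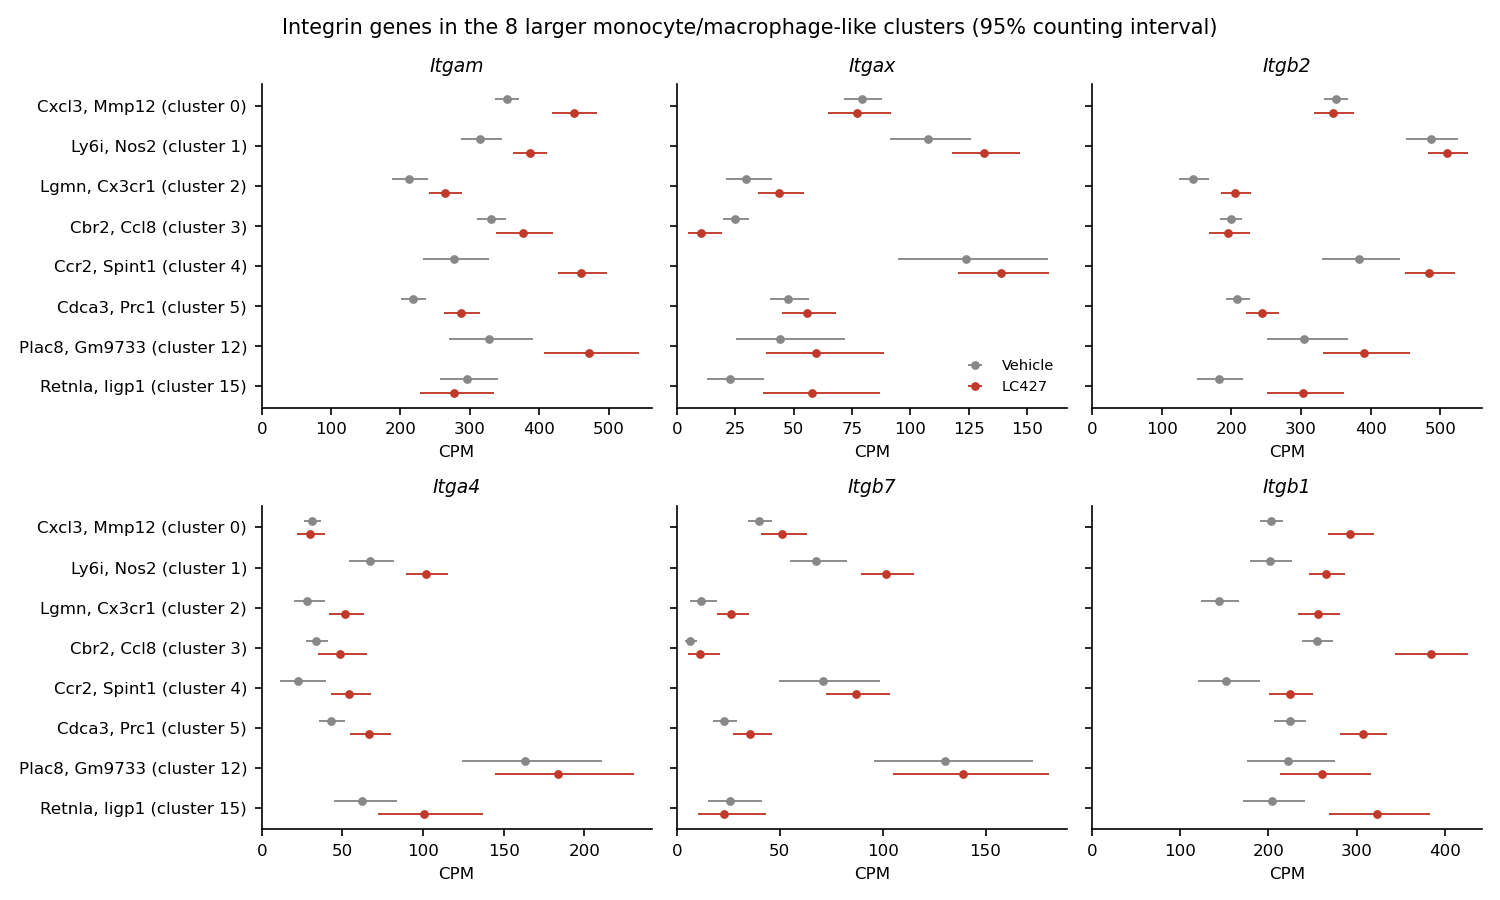
CPM of 6 integrin genes (horizontal axis) in the 8 monocyte/macrophage-like clusters with at least 100 cells in both libraries (vertical axis, named by leading genes), vehicle in grey and LC427 in red, bars the 95% counting interval. Itgb1 in LC427 lay above vehicle in 8 of 8 clusters, and Itgax and Itgb7 differed more between clusters than between libraries. The clusters are parts of the same libraries and not repeats.

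The clusters carried different sets of integrins. The Plac8 cluster had the highest Itgal of the larger macrophage clusters, at 208 and 179 CPM, the highest Itga4, at 163 and 184 CPM, and the highest Itgb7, at 130.2 and 139 CPM, while its Itgb5 was 27.7 CPM in vehicle and 82.0 CPM in LC427. The Ly6i and Nos2 cluster had the highest Itgb2 of the larger macrophage clusters, at 487 and 510 CPM. The Cbr2 and Ccl8 cluster had low Itgax, at 24.8 CPM in vehicle against 10.2 CPM in LC427, a ratio of 0.41 (0.18 to 0.82) on 77 and 9 UMIs. Its Itgb1 went the other way, from 255 to 384 CPM. Itgam had its highest ratio in the Ccr2 and Spint1 cluster, with 278 and 461 CPM and a ratio of 1.66 (1.38 to 2.01). A cluster of 56 and 68 cells led by the nuclear RNAs Neat1 and Malat1 held 1182 and 1612 CPM of Itgam and 1702 and 2216 CPM of Itgb1, above each of the larger macrophage clusters, and without it 3 members of the class were apart.

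In T-like cells Itga4 and Itgae were higher in LC427 and Itgb2 was lower. These were 2 and 1 of 9 measured members, against 22.4% of 8780 genes apart, 13.1% higher and 9.29% lower, and the median log2 ratio was -0.16 against 0.07 for all genes. With each cell thinned to 1000 UMIs, 0 members of the whole T-like class were apart: Itga4 had a ratio of 1.20 and Itgb2 of 0.68, and Itgae no longer had the 20 UMIs of a measured gene. In CD8-like cells, 185 in vehicle and 263 in LC427, 1 of 6 measured members was higher and 2 were lower, against 30.4% of 5472 genes apart, 18% higher and 12.4% lower. Itga4 went from 53.8 CPM in vehicle to 176 CPM in LC427, a ratio of 3.28 (2.13 to 5.18) on 29 and 86 UMIs. Itgb2 went from 278 to 162 CPM, for a ratio of 0.58 (0.44 to 0.77) on 150 and 79 UMIs, and Itga1 from 87.2 to 53.3 CPM, for a ratio of 0.61 (0.36 to 1.01).

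Cycling CD8-like cells, clustered apart, gave ratios of the same direction, with 1 of 7 measured members higher and 2 lower against 28.5% of 6516 genes apart, 14.5% higher and 14% lower. Itga4 stood at 88.7 CPM in vehicle against 152 CPM in LC427, a ratio of 1.72 (1.23 to 2.39). Itgb2 stood at 269.6 and 150.2 CPM, a ratio of 0.56 (0.42 to 0.73). Itgal, the partner of Itgb2 in T cells, differed little, at 337 and 336 CPM with a ratio of 1.00 (0.82 to 1.21), and in CD8-like cells it had a ratio of 0.85 (0.70 to 1.04). Itgax in these cycling cells had a ratio of 0.54 (0.21 to 1.23) on 28 and 8 UMIs.

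The lower Itgb2 was shared by the T sub-cluster with NK receptor genes, of 189 and 83 cells, at 246 CPM in vehicle and 147 CPM in LC427. There 0 of 7 measured members were higher and 2 lower, against 33.8% of genes apart, 20% higher and 13.8% lower. CD4/Treg-like cells held 286 and 271 CPM, a ratio of 0.95 (0.63 to 1.42), and whether the sub-classes differ from one another was not tested. Itga4 in these sub-classes stood at 190.4 and 159.7 CPM with NK receptor genes, a ratio of 0.84 (0.52 to 1.32), and at 69.2 and 64.5 CPM in CD4/Treg-like cells, a ratio of 0.93 (0.37 to 2.22). In the CD8-like class the summed CPM of 13 monocyte/macrophage markers was 727 in vehicle and 461 in LC427, with Adgre1 at 0 in both, and that of 6 T cell markers was 3595 and 2806. Their part in the Itgb2 ratio was not tested. A cluster of 103 and 325 barcodes with T cell and myeloid genes was kept out of the T-like class, and counted in, it brought the Itgb2 ratio of all T-like cells from 0.63 to 0.91 and that of Itga4 from 1.55 to 1.26.

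Cells that held both chains of a pair were counted next. Cells holding UMIs of both Itgal and Itgb2 made up, of CD8-like cells, 9.19% (5.44% to 14.3%) with vehicle and 2.66% (1.08% to 5.41%) with LC427 at 1000 UMIs a cell, on 17 and 7 cells. Cycling CD8-like cells differed less, with shares of 7.38% (3.74% to 12.8%) and 5.75% (2.79% to 10.3%), on 11 and 10 cells. In CD4/Treg-like cells the shares were 10.3% and 10.1%, and in the T sub-class with NK receptor genes 5.29% and 6.02%, on 10 and 5 cells. Cells with Itgax and Itgb2 made up 8.07% and 4.17% of conventional DC-like cells, on 13 and 16 cells, while the Itgax ratio there was 1.19. Cells with Itgam and Itgb2 made up, of monocyte/macrophage-like cells, 7.33% (6.47% to 8.26%) with vehicle and 10.0% (9.12% to 11.03%) with LC427. That pair was in 1 of 610 and 0 of 609 T-like cells, the second of which allows, at 3 counts, a share of up to 0.493%.

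**Figure D3:**
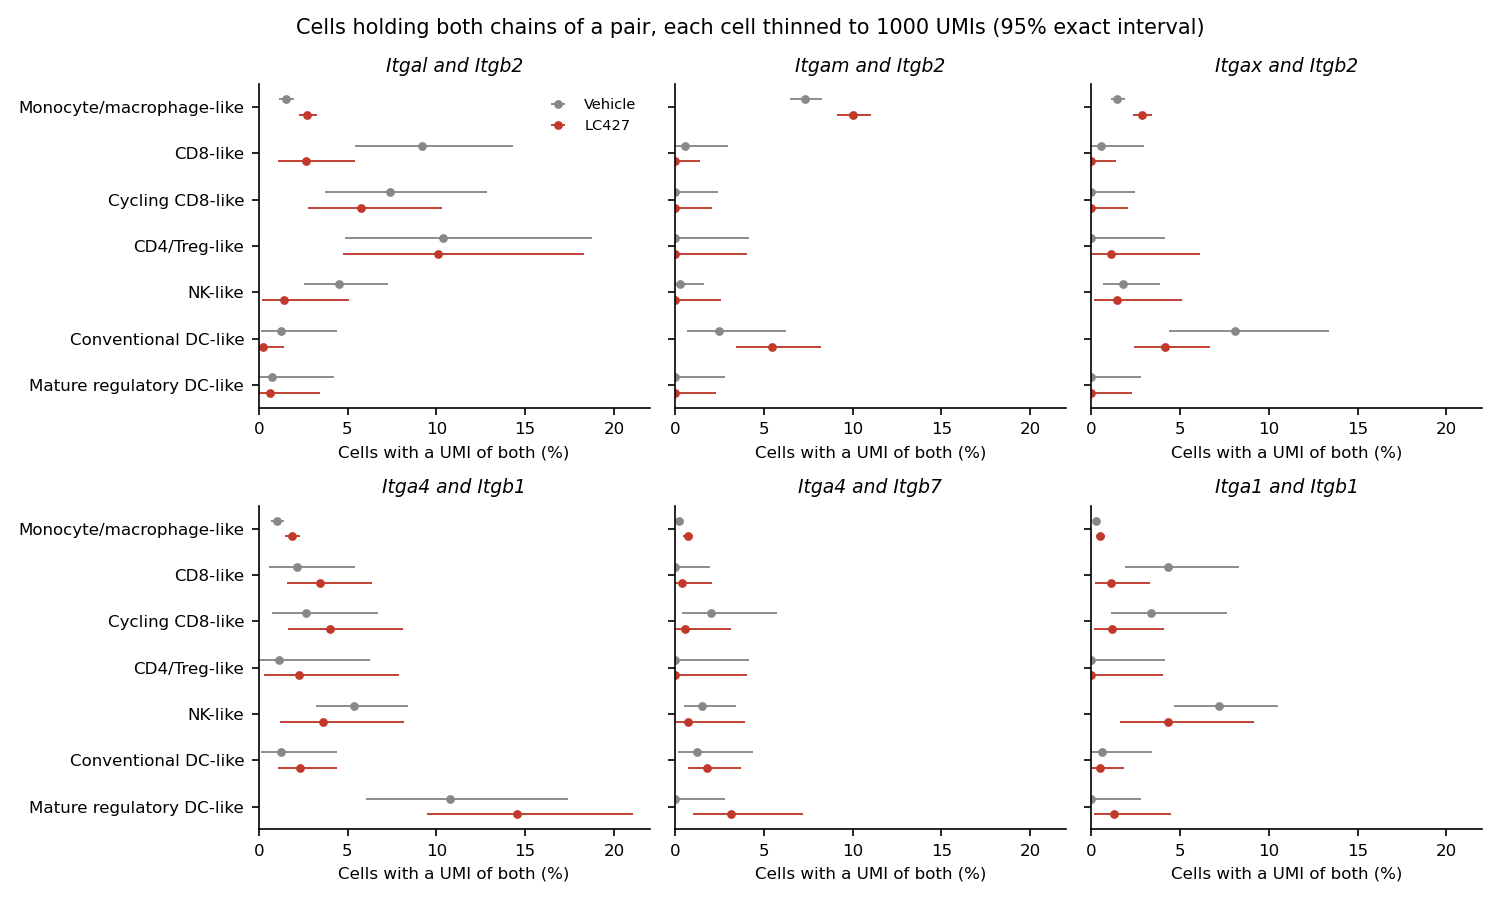
Share of cells with a UMI of both chains of 6 integrin pairs (horizontal axis, %) in 7 classes (vertical axis), each cell thinned to 1000 UMIs, vehicle in grey and LC427 in red, bars the exact 95% interval. Cells with Itgal and Itgb2 stood at 9.19% and 2.66% of CD8-like and at 7.38% and 5.75% of cycling CD8-like cells. Itgb1 stood at 407 and 465 CPM in empty droplets, and the part of free RNA in pairs with Itgb1 was not tested.

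Other T-like members rested on few UMIs. Itgae in all T-like cells had 18 UMIs in vehicle and 26 in LC427, or 8.71 and 20.3 CPM, a ratio of 2.34 (1.23 to 4.52). Itgb1 in CD4/Treg-like cells stood at 378 CPM in vehicle against 187 CPM in LC427, a ratio of 0.49 (0.31 to 0.76), and was 1 of 6 measured members lower beside 1 higher, against 32.3% of genes apart, 15.8% higher and 16.5% lower. The sub-class joined 2 clusters of unlike sizes, in which the Foxp3-led one, of 37 and 69 cells, held 205 and 202 CPM of Itgb1, and the one led by Il13 and Cd4, of 50 and 20 cells, held 601 and 137 CPM on 57 and 5 UMIs.

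In NK-like cells Itga1 was lower in LC427. Of 8 measured members 0 were at least 1.5-fold higher and 1 lower, against 40.3% of 6506 genes apart, 23.9% higher and 16.4% lower. Itga1 went from 162 to 99.6 CPM, for a ratio of 0.61 (0.40 to 0.91) on 236 and 28 UMIs. Itgb1 had 538 and 544 CPM, a ratio of 1.01 (0.85 to 1.21), and Itgal had a ratio of 0.97 (0.74 to 1.26). Itgb2 stood at 120.5 and 81.9 CPM, a ratio of 0.68 (0.42 to 1.05).

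In conventional DC-like cells 1 of 10 measured members was higher and 2 were lower, against 22.6% of 7463 genes apart, 14.8% higher and 7.77% lower. Itga4 went from 58.8 CPM in vehicle to 107 CPM in LC427, a ratio of 1.82 (1.31 to 2.55), and was also higher in the Retnla and Ccl17 cluster alone, at 52.0 and 106 CPM with a ratio of 2.03 (1.36 to 3.12). Itgae went from 83.1 to 48.0 CPM, for a ratio of 0.58 (0.41 to 0.82). The Plet1 and Wdfy4 cluster gave 38 of 161 cells in vehicle and 43 of 384 in LC427, and within it the ratio was 1.05 (0.73 to 1.51). With both clusters given equal shares in the libraries the Itgae ratio was also 1.05. Itgal had a ratio of 0.62 (0.43 to 0.90), and of 0.87 with the Plet1 and Wdfy4 cluster left out.

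Mature regulatory DC-like cells had 3 of 7 measured members higher and 0 lower, against 28.3% of 4846 genes apart, 17.8% higher and 10.5% lower. Itgam and Itgax each stood at 18.2 CPM in vehicle and 53.0 CPM in LC427, on 10 and 24 UMIs, a ratio of 2.91 (1.34 to 6.83). The share of cells with an Itgam UMI was 5.38% in vehicle and 5.70% in LC427. After thinning it was lower in LC427, at 3.85% and 1.9%. The 24 Itgam UMIs of LC427 thus lay in few cells. UMIs of 1 cell are not independent, so the interval of this ratio is too narrow. Itgb2 stood at 50.9 and 92.7 CPM, a ratio of 1.82 (1.10 to 3.05). Monocyte/macrophage markers moved with them, with a summed CPM of 464 in vehicle and 770.4 in LC427 for 13 and 12 of 13 markers. So did 6 type 1 DC markers, at 36.4 and 172, with Tlr3 at 0 in both, 6 type 2 DC markers, at 1351 and 2322, and 6 T cell markers, at 171 and 384. The part of these cells in the ratios was not tested. Itga4, the abundant member there, had a ratio of 1.39 (1.17 to 1.65).

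**Figure D4:**
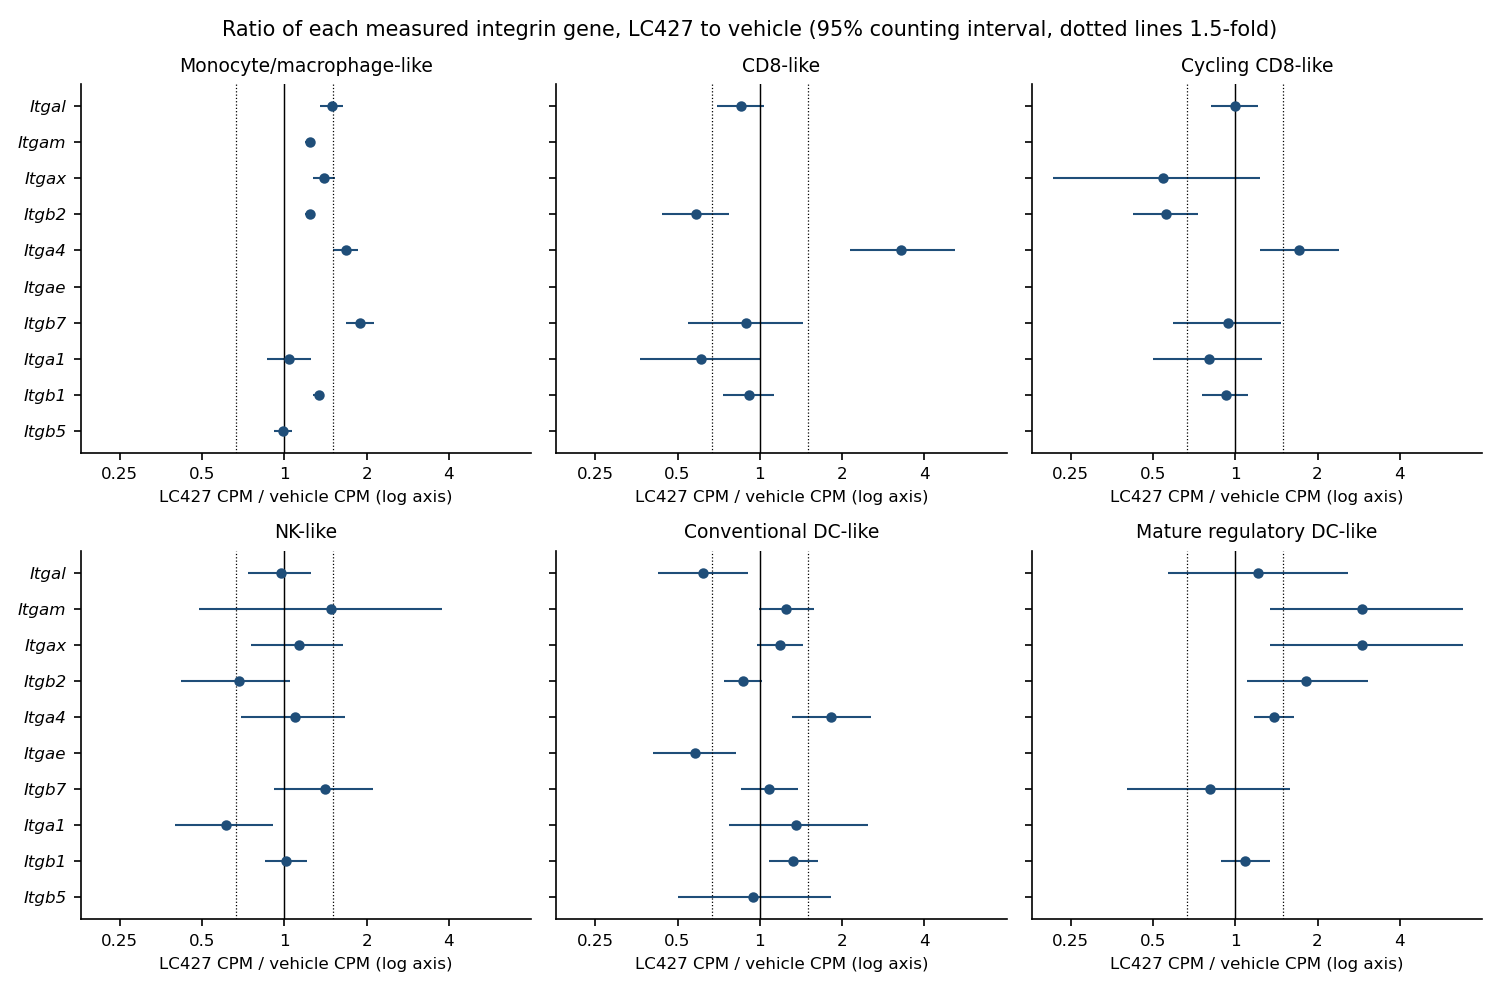
Ratio of LC427 to vehicle CPM (horizontal log axis) for each measured integrin gene (vertical axis) in 6 classes, with 95% counting intervals and dotted lines at 1.5-fold either way. Itga4 lies right of 1 in the 6 classes drawn, from 1.09 (0.69 to 1.66) in NK-like to 3.28 in CD8-like cells. In classes not drawn Itga4 had ratios of 0.93 in CD4/Treg-like and 0.92 in plasmacytoid DC-like cells. It was also below 1 in the T sub-class with NK receptor genes. Itgb2 lies left of 1 in both CD8-like classes, NK-like and conventional DC-like cells.

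The other integrin chains and partners of the pathway were read from lists. Their counts stand against shares of all genes higher and lower of 10.7% and 6.07% in monocyte/macrophage-like, 13.1% and 9.29% in T-like, 23.9% and 16.4% in NK-like and 14.8% and 7.77% in conventional DC-like cells. Of 16 other integrin subunits, 6 were measured in monocyte/macrophage-like cells with 2 higher and 2 lower, 6 in T-like cells with 1 higher and 2 lower, and 3 in NK-like cells with 0 higher and 2 lower. Itgb3, the vitronectin receptor beta chain, was lower in each of these, from 4.09 to 1.16 CPM in monocyte/macrophage-like, from 55.1 to 32.9 CPM in T-like and from 189 to 81.9 CPM in NK-like cells, with ratios of 0.28, 0.60 and 0.43. The low monocyte/macrophage-like level rested on 62 and 13 UMIs, with an interval of 0.14 to 0.52 for the ratio. The part of free RNA in it was not tested. Itga5, the fibronectin receptor alpha chain, had a ratio of 1.58 (1.43 to 1.73) in monocyte/macrophage-like cells, and Itgav, the partner of Itgb5, one of 1.57 (1.24 to 1.99) in T-like cells.

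Of 21 ligands 12 were measured in monocyte/macrophage-like cells, with 1 higher and 1 lower, 6 in T-like cells with 0 higher and 3 lower, 5 in NK-like cells with 0 higher and 4 lower, where 40.3% of all genes were apart, and 6 in conventional DC-like cells with 1 of each, where 22.6% were. Icam1, the main ligand of LFA-1 and Mac-1, had ratios of 0.49 (0.32 to 0.73) in T-like and 0.44 (0.29 to 0.66) in conventional DC-like cells. F11r, a junctional ligand of LFA-1, had ratios of 1.70 (1.55 to 1.87) in monocyte/macrophage-like and 1.85 (1.25 to 2.81) in conventional DC-like cells. Spp1, osteopontin, stood in NK-like cells at 3387 CPM in vehicle and 673 CPM in LC427. It was also a leading gene of the macrophage cluster led by Cxcl3 and Mmp12, of 861 and 504 cells. The 13 monocyte/macrophage markers summed to 814 and 872 CPM in NK-like cells. The part of macrophages or free RNA in the Spp1 level was not tested.

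Of 19 genes of inside-out activation, which switch integrins to their binding form, 17 were measured in monocyte/macrophage-like cells with 0 higher and 1 lower, and 16 in T-like cells with 1 higher and 3 lower, where 16.8% and 22.4% of all genes were apart. In NK-like cells 3 of 15 were higher and 2 lower, and in conventional DC-like cells 2 of 15 were higher and 0 lower. Tln1, talin, which binds beta chain tails, had a ratio of 1.40 in monocyte/macrophage-like and 1.00 in T-like cells. Genes past 1.5-fold included Rasgrp2 at 0.62 in monocyte/macrophage-like cells, Sharpin and Flna at 0.42 and 0.64 in T-like cells, and Fyb at 1.89 in conventional DC-like cells. Of 20 signalling and adhesion complex genes 20 were measured in monocyte/macrophage-like cells with 2 higher and 1 lower, among them Parvg at a ratio of 1.89 and Lims1 at 60.1 CPM in vehicle and 90.4 CPM in LC427. Of the same list, 3 of 14 were higher and 1 lower in T-like cells, 3 of 14 higher and 4 lower in NK-like cells and 4 of 17 higher and 2 lower in conventional DC-like cells. Parvg also had a ratio of 1.99 (1.23 to 3.15) in NK-like cells, while Zyx was at 0.51 in T-like and 0.66 in conventional DC-like cells. Of 10 genes of tissue residence and egress, 8 were measured in monocyte/macrophage-like cells with 3 higher and 2 lower, 9 in T-like cells with 0 higher and 1 lower, 6 in NK-like cells with 0 higher and 3 lower, and 6 in conventional DC-like cells with 2 higher and 1 lower, beside the shares of all genes given for these classes. Among them Ccr7, the receptor that guides cells to lymph nodes, had a ratio of 0.24 (0.15 to 0.37) in conventional DC-like cells, where the summed CPM of 7 mature regulatory DC markers was 396 in vehicle and 201 in LC427, and the part of such cells was not tested.

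Some genes had a pattern close to that of a member over 28 points, the 2 libraries of 14 classes, on the log2(CPM + 10) scale among 5609 genes. Itgam was nearest to Pid1 and Ccr1, with Pearson r of 0.99 and 0.98, and Itgb5 to Sash1 with 0.97. Itgal was nearest to Sema4d with 0.94, Itgb2 to Tent5a with 0.93, Itga4 to Epsti1 with 0.91 and Itga1 to Nbeal2 with 0.90. Itgb7, Itgae, Itgb1 and Itgax were less closely matched, with highest r of 0.79 for Gramd4, 0.76 for Ccdc82, 0.83 for Cirbp and 0.84 for Klrb1b. The points share 2 libraries and their free RNA, so these values only describe the classes.

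The authors' deposited tables, with 13 clusters for vehicle and 11 for LC427 made separately, hold mean counts per cluster. In the authors' deposited table Itgam and Malat1 were highest in the same cluster in each library, Itgam with means of 3.09 in vehicle and 2.48 in LC427. In the authors' deposited table Itgae was highest, with means of 0.0875 and 0.0578, in the cluster that was also highest for Ccr7, Xcr1 and Siglech in each library. The cluster thus joined markers of mature regulatory, type 1 and plasmacytoid DCs, which it cannot tell apart. Itga4 in the authors' deposited table was highest in that same cluster in vehicle, with a mean of 1.05, and second there in LC427, with 0.711. The cluster highest for Itgam and Malat1 was second for Itga4 in vehicle, with 0.713, and highest in LC427, with 0.766.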

How the data were processed

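The 2 libraries, 1 vehicle and 1 LC427, were grouped by the treatment label. The authors deposited unfiltered matrices of UMI counts per gene, and tables of mean counts per cluster, a signal scaled to a common total. Cell Ranger 3.0.1, Seurat 3 and GRCm38 (mm10) are listed per the submitters' processing notes, whereas Cell Ranger 4 is written in the matrices per the file headers. The libraries held 33711726 UMIs in vehicle and 28732435 in LC427.

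Barcodes with at least 1000 UMIs, 400 genes and at most 10% mitochondrial UMIs were kept (137 and 12 removed for the last). Scrublet called 0 doublets and was taken not to have worked, so the highest scores were left out at 0.8% per 1000 cells, 220 and 320 barcodes. Cells were clustered with scanpy 1.11.5 and leidenalg 0.10.2 (2000 variable genes, 30 components, 20 neighbours, resolution 1), without integrin and pathway genes. UMIs were summed per class and library. CPM have exact Poisson, ratios exact conditional binomial and shares Clopper-Pearson intervals at 95%. UMIs of 1 cell are not independent, so intervals are too narrow. A 0 stood as 3 counts in ratios. The ratio script was tested on simulated data.

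Members, lists and markers were chosen with earlier results of these data known. All members are described in classes of at least 100 cells. From each list up to 3 genes each way were named, past 1.5-fold with an interval without 1, by the bound nearest to 1. Likeness was the highest Pearson r over classes. The 2 T sub-classes under 100 cells and genes outside this rule (Tln1) were named after their values were seen. Planned protein motifs were not analysed here. Alternatives covered cell limits, doublets, clustering, thinning, scaling and class make-up.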

Additional observations from a re-analysis of the deposited data

Results flagged for a closer look

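Itgb2, Itgae and Itgax were each at least 1.5-fold higher in LC427 in 1 class and at least 1.5-fold lower in another. With 1 library per group, whether the classes differ was not tested. Itgb2 had ratios of 0.63 in T-like, 0.58 in CD8-like and 0.56 in cycling CD8-like cells, and of 1.82 in mature regulatory DC-like cells. Itgae had ratios of 2.34 in T-like cells and 0.58 in conventional DC-like cells. The T-like ratio rested on 18 and 26 UMIs, and Itgae was no longer measured there after thinning. The conventional DC-like ratio turned above 1 in 2 of 14 alternatives, among them equal cluster shares. Itgax had ratios of 0.54 in cycling CD8-like cells, with an interval of 0.21 to 1.23, and of 2.91 in mature regulatory DC-like cells.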

How the results depend on the processing

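No paired analysis was possible because each group has 1 library and the labels carry no shared replicate numbers. The count of members apart in monocyte/macrophage-like cells, 2, became 0 with cluster shares of the class held equal, and was 2 or 3 under the other alternatives. In T-like cells the count of 3 became 0 with each cell thinned to 1000 UMIs, where Itgae was no longer measured, 5 with the mixed T and myeloid barcodes counted in and 6 at resolution 0.5. In NK-like cells the count of 1 became 2 with ratios centred on the median of all genes, thinned cells, doublets kept, resolution 2 or each library clustered alone, 3 with a lower or a higher minimum of UMIs per cell or a stricter mitochondrial limit, and 0 with integrin and pathway genes among the variable genes. In conventional DC-like cells the count of 3 became 1 without the cluster led by Plet1 and Wdfy4. The ratio of Itgae in conventional DC-like cells, 0.58, turned to 1.05 with cluster shares held equal and 1.06 with each library clustered alone. Among ratios of single members under an alternative, 679 stayed within the counting interval of the reported value, 70 left it and 2 reversed. The ratio of Itga4 in CD8-like cells lay between 2.26 and 3.58 and that of Itgb2 between 0.50 and 0.64 under 13 alternatives, while Itgb2 in all T-like cells lay between 0.60 and 0.91 and was past the limit in 7 of 15. Equal cluster shares, the mixed barcodes and the clusters left out were chosen after seeing the data. Except where fewer cells or equal shares follow from the alternative itself, the cause was not tested. Members with few UMIs, such as Itgae, are limited by depth.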
